A study of Rattus norvegicus with 10 samples.

Results

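Cyclooxygenases and the enzymes on either side of them were examined in HSC-2, a line of stellate cells from the liver of Wistar rats. Stellate cells lie along the liver sinusoids, store retinoids at rest and turn into contractile, matrix-forming cells after injury. The members were 6 genes: Ptgs1, Ptgs2, Ptges, Ptgis, Ptgds and Pla2g4a. All probe sets annotated with exactly 1 of these symbols were taken, which gave 8 of the 31099 probe sets on the array. The members are 6 of the 14218 genes that the array names through such probe sets, and no probe set with several symbols included a member. Of these, 7 probe sets of 5 genes could be tested. The probe set of Ptgds was at the floor of the deposited table, an intensity of 20, on all 10 arrays and was not tested.

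The arrays came from 5 lines, each sampled at passages 42 and 43. Clones S1, S4 and S5 are labelled as overexpressing rno-miR-146a, a microRNA known to damp the Toll-like and interleukin-1 receptor pathways. Each clone is 1 clonal line, and the promoter that drives the microRNA is not given in the sources used here. The control lines were cells transfected with a scrambled sequence and untransfected HSC-2, and all 5 lines were grown in high glucose medium with serum and antibiotics. Both untransfected arrays are titled replicate 2, and whether a replicate 1 exists is not known. Nothing in the labels says that passages were separate cultures, so p-values between single lines rest on a spread between passages that may be technical. The level of mature miR-146a was not analysed here. Its sequence is shown because it is what sets the clones apart by label, with the seed, bases 2 to 8, in capitals; it is taken from RefSeq on GRCr8, chr10:28350053-28350074, minus strand.
rno-miR-146a-5p: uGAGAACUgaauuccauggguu

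Prostanoids are made in sequence. Cytosolic phospholipase A2, encoded by Pla2g4a, frees arachidonic acid from membranes, and a cyclooxygenase turns it into the unstable prostaglandin H2. Ptgs1 encodes the constitutive cyclooxygenase, COX-1, and Ptgs2 the inducible form, COX-2, whose messenger RNA is short-lived and has been reported as a target of miR-146a. Terminal synthases then compete for prostaglandin H2: Ptges makes prostaglandin E2, Ptgis makes prostacyclin and Ptgds makes prostaglandin D2. In the liver, prostaglandin E2 and prostacyclin have been reported to restrain contraction and matrix production by stellate cells.

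The labelled cell type was checked against fixed markers. Of 14 stellate cell markers, 9 had a median intensity over 1000, among them Vim, Col1a1, Col1a2, Col3a1, Sparc and Acta2, while Lrat, which makes retinyl esters, was at the floor on all 10 arrays and Gfap lay between 28.1 and 38.1. Des had a median of 111 and Ngfr of 21.1, at the floor on 3 arrays. Of the markers of other liver cells, 4 of 7 for hepatocytes, 5 of 8 for macrophages and leukocytes, 5 of 6 for endothelium and 3 of 3 for biliary epithelium had a median under 50. Among these markers Cd14, of the macrophage and leukocyte list, had a median of 620. Summed over a list, these markers lay at 409 to 441 on clone arrays and 393 to 468 on control arrays for hepatocytes, 867 to 1054 and 785 to 967 for macrophages and leukocytes, 248 to 299.95 and 242 to 347 for endothelium, and 71.6 to 86.4 and 64.7 to 72.3 for biliary epithelium; their part in the results was not tested. The scrambled line stood apart from the other lines in Acta2, the actin isoform of activated, contractile stellate cells. Its arrays held 1195 and 1124 intensity units, against 9626 and 7715 on the untransfected arrays, and the clone arrays lay between 4682 and 6834.

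By the test without a passage term, Ptgs1 was lower in every clone against both control lines on its dimmer probe set. On its brighter one it was lower in every clone against untransfected and in S1 against scrambled. With passage added as a replicate block, S4 and S5 against scrambled passed too. Ptgs2 was higher in S4 against scrambled, the 1 of its 6 comparisons that passed without that block, and 2 passed with it. Among the synthases, Ptgis was higher in every clone against both control lines. The starts of the cyclooxygenase genes are shown because the genes, though they encode isozymes, were not called in the same direction. Whether their changes differed from each other was not tested. Each sequence is the 250 bases before the annotated start, from RefSeq on GRCr8: chr3:39981169-39981418 for Ptgs1 and chr13:64713813-64714062 for Ptgs2, both on the plus strand, with matches to the motifs named below in capitals.
Ptgs1: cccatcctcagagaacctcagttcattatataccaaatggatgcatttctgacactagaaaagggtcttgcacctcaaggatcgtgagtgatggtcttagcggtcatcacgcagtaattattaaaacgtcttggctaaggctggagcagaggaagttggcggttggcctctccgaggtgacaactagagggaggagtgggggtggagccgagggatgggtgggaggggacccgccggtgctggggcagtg
Ptgs2: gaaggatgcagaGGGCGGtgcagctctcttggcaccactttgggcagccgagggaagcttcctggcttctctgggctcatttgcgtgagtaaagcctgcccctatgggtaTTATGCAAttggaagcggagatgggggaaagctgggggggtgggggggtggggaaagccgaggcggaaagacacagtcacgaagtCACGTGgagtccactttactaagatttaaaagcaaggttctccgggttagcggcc

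Motifs were searched on both strands, and each share that follows is that of the 33469 promoter windows of the same table with a match. The Ptgs2 window held an E-box (CACGTG, 5.59% of windows) 55 bases before the start, a C/EBP site (TTNNGNAA, 37.2%) at 140 bases and a GC box (GGGCGG, 30.5%) at 238 bases, with no overlap between them. Neither window held a TATA box (TATAAA, 12.9%), a cyclic AMP response element core (CGTCA, 18.2%), an AP-1 site (TGANTCA, 6.34%) or the NF-kB consensus (6.33%), and the Ptgs1 window held none of the motifs searched. GC content was 54.4% for Ptgs1 and 57.2% for Ptgs2, against a median of 51.2% over all windows. A match is a run of letters and not evidence of binding. In GRCr8, Ptgs2 and Pla2g4a are neighbours on chromosome 13, while Ptgs1, Ptges, Ptgis and Ptgds lie on chromosome 3.

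The main comparison set each clone against each control line, 6 comparisons in all, on log2 intensities of all 27520 tested probe sets with limma and a Benjamini-Hochberg adjusted p under 0.05. Of the 7 member probe sets, limma called 1 higher and 2 lower in S1 against scrambled, where 4.19% of all tested probe sets were called. It called 1 higher and 2 lower in S1 against untransfected (4.38% of all), 2 higher and 1 lower in S4 against scrambled (3.64%), and 1 higher and 2 lower in S4 against untransfected (3.52%). For S5 the counts were 1 higher and 1 lower against scrambled (3.44%), and 1 higher and 2 lower against untransfected (3.63%). All of these calls fell on Ptgs1, Ptgs2 and Ptgis, and every other member probe set was uncalled in all 6 comparisons. Where 2 probe sets were called lower, both were of the same gene, Ptgs1. The median difference of the 7 probe sets lay between -0.26 and -0.0100 across the 6 comparisons, against -0.0104 to 0 for all tested probe sets. The median of -0.0100, in S4 against scrambled, was the value of a Ptges probe set at the floor on 5 arrays.

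**Figure D1:**
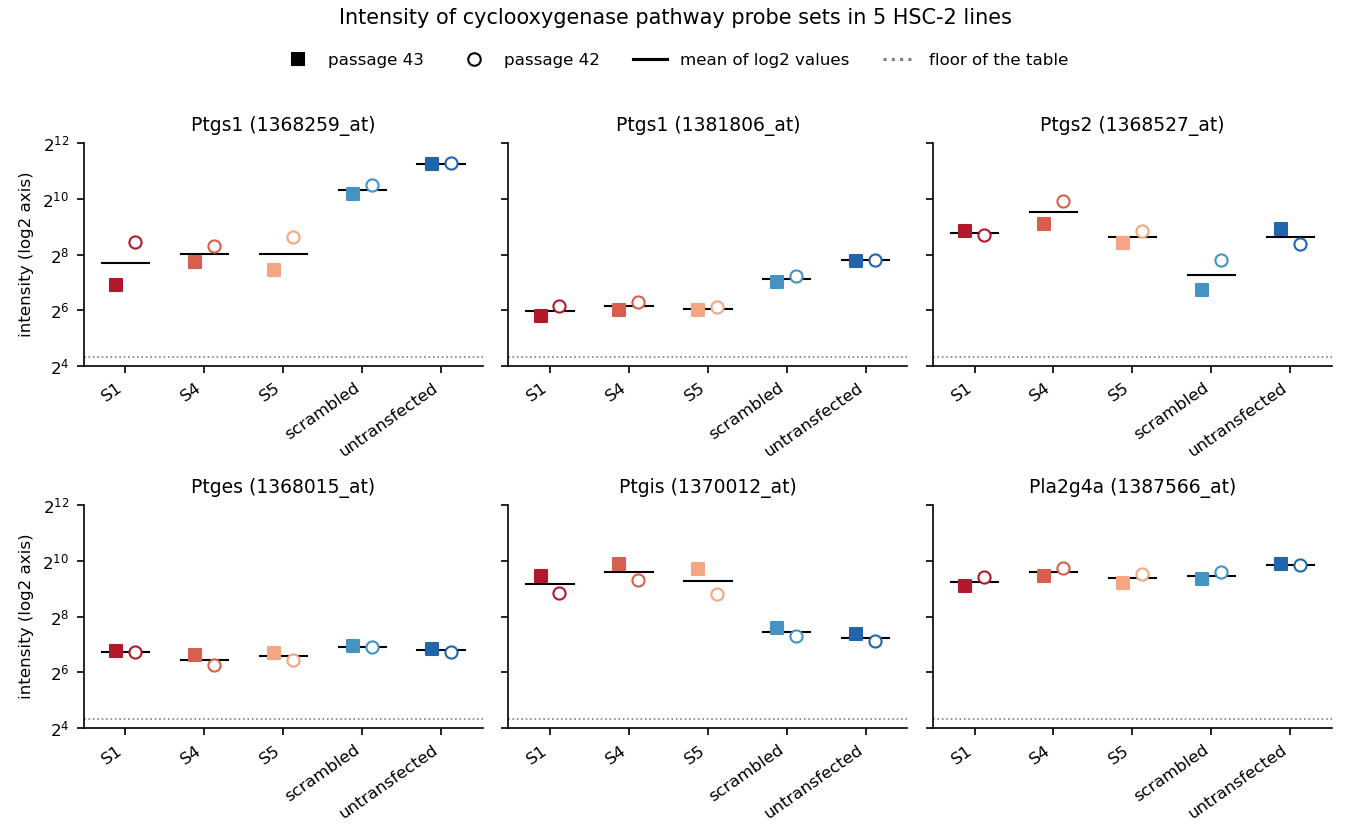
Intensity on a log2 axis of 6 member probe sets in the 3 clones and the 2 control lines, with passage 43 as filled squares, passage 42 as open circles, a bar at the mean of the log2 values and a dotted line at the floor of 20. Ptgs1 was lower and Ptgis higher on all 6 clone arrays than on all 4 control arrays, and Ptgs2 was lowest in the scrambled line. Of all tested probe sets, 3.44% lay lower and 4.06% higher in this way.

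Ptgs1 was measured by 2 probe sets. On the brighter one, S1 had intensities of 121 and 351 at passages 43 and 42, S4 of 213 and 314, and S5 of 173 and 397. The scrambled line had 1154 and 1447, and the untransfected line 2453 and 2483. All 6 clone arrays lay below all 4 control arrays, as for 3.44% of all tested probe sets. The untransfected line was above the scrambled line at both passages. In bulk RNA, fewer expressing cells and less RNA per cell cannot be told apart. On the log2 scale, the passages of each clone differed more than those of either control line.

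Against the untransfected line, the brighter probe set was lower by limma in all 3 clones, by 12.0-fold in S1 (log2 difference -3.58, adjusted p = 0.0107), 9.54-fold in S4 (-3.25, adjusted p = 0.0168) and 9.42-fold in S5 (-3.24, adjusted p = 0.0184), each with an SE of 0.52. Against the scrambled line it was lower in S1 (-2.65, limma adjusted p = 0.0334). In S4 it was at -2.32 (limma adjusted p = 0.0580) and in S5 at -2.30 (adjusted p = 0.0615), just outside the threshold. With passage as a replicate block, both of these passed, with adjusted p = 0.00824 and 0.00914, as they did at an unchanged difference without either array of S1. The S1 call against scrambled was lost without the passage 43 array of S1, where the difference was -1.88, and without any 1 array of S4, scrambled or untransfected, where it was -2.81 to -2.48. Against untransfected, the S1 call was lost without the passage 43 array of S1 (-2.81) or of the untransfected line (-3.59). The S4 and S5 calls were lost without either array of the clone itself, at -3.53 and -2.98 for S4 and -3.83 and -2.64 for S5, or without either untransfected array, at -3.26 to -3.23.

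The second probe set was dimmer and varied less between passages. S1 had 55.0 and 71.1, S4 had 63.8 and 78.5 and S5 had 64.4 and 68.9, against 128 and 151 in the scrambled and 218 and 225 in the untransfected line. Again no clone array reached a control array, where 3.44% of all tested probe sets lay below in this way. The probe set was lower in all 3 clones against both control lines by limma, each with an SE of 0.16. Against scrambled the differences of S1, S4 and S5 were -1.15, -0.97 and -1.06 (limma adjusted p = 0.00834, 0.0169 and 0.0134), and against untransfected -1.82, -1.65 and -1.73 (adjusted p = 0.00121, 0.00186 and 0.00170). Over the tested probe sets, 0.243% were lower in all 6 comparisons and 0.560% in at least 4. Both probe sets thus gave the same direction, and the brighter one the larger difference. The calls against untransfected held under all 16 alternative settings, including the loss of any 1 array. Against scrambled, the S1 call was lost without the passage 43 array of S1 (-0.97) or the passage 42 array of scrambled (-1.03), and the S4 and S5 calls without either array of the clone (-1.12 and -0.82 for S4, -1.11 and -1.01 for S5) or of scrambled (-1.18 to -0.85).

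Ptgs2 had 1 probe set. Its intensities at passages 43 and 42 were 463 and 420.1 in S1. S4 had 554 and 982, and S5 had 341 and 459. The scrambled line had 105 and 222, and the untransfected line 481 and 332. The scrambled arrays were the lowest of the 10, and of the 6 clone arrays 4 lay between the untransfected ones and 2, both of S4, above them. The passages moved in opposite directions in the control lines, where passage 43 was below passage 42 in the scrambled line and above it in the untransfected line.

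Against scrambled, Ptgs2 was higher in S4, 4.83-fold (2.27, SE 0.39, limma adjusted p = 0.0211). In S1 it was at 1.53 (limma adjusted p = 0.0808, and 0.0448 with passage as a replicate block) and in S5 at 1.37 (adjusted p = 0.125). Against untransfected it was at 0.14 in S1 (95% interval -0.77 to 1.05), 0.88 in S4 (-0.03 to 1.79) and -0.01 in S5 (-0.92 to 0.90), with limma adjusted p = 0.903, 0.296 and 0.999. Limma thus called Ptgs2 lower in none of the clones (0 of 6 comparisons). Of all tested probe sets it called only 1.37% to 2.32% lower per comparison, and each interval of Ptgs2 against untransfected extended below 0. The scrambled line was itself at -1.39 relative to the untransfected line (limma adjusted p = 0.0831, and 0.0452 with passage as a replicate block). The rise in S4 was thus called against one control line and not against the other. The S4 call was lost without any 1 array of S1 or S5, at an unchanged 2.27, without the passage 42 or 43 array of S4, at 1.86 and 2.68, and without the passage 43 array of scrambled, at 1.73.

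Ptgis, prostacyclin synthase, was measured by 1 probe set. Its intensities at passages 43 and 42 were 711 and 458 in S1. S4 had 942 and 634, and S5 had 836 and 456. The scrambled line had 195 and 159.7, and the untransfected line 165 and 139. All 6 clone arrays were above all 4 control arrays, as for 4.06% of all tested probe sets. In every line passage 43 was above passage 42.

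Ptgis was higher in all 3 clones against both control lines by limma. Against scrambled it was higher 3.24-fold in S1 (1.69, adjusted p = 0.0324), 4.38-fold in S4 (2.13, adjusted p = 0.0134) and 3.50-fold in S5 (1.81, adjusted p = 0.0291). Against untransfected it was higher 3.78-fold in S1 (1.92, adjusted p = 0.0209), 5.12-fold in S4 (2.36, adjusted p = 0.00973) and 4.09-fold in S5 (2.03, adjusted p = 0.0193), each with an SE of 0.33. Of all tested probe sets, 0.411% were higher in all 6 comparisons and 0.821% in at least 4. Each of the 6 calls was lost without some single array, although the direction held throughout. Against scrambled, the S1 call was lost without any 1 array of S1 (2.01 and 1.38), S4 or untransfected (1.69) or scrambled (1.55 and 1.84), the S4 call without any 1 array of S4 (2.42 and 1.85) or scrambled (1.99 and 2.28), and the S5 call without the passage 43 array of S5 (1.37) or any 1 array of S4 or untransfected (1.81) or scrambled (1.67 and 1.95). Against untransfected, the S1 call was lost without any 1 array of S1 (2.23 and 1.60) or untransfected (1.79 and 2.04), the S4 call without the passage 43 array of S4 (2.07) or untransfected (2.48), and the S5 call without the passage 43 array of S5 (1.59) or any 1 untransfected array (1.91 and 2.15).

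**Figure D2:**
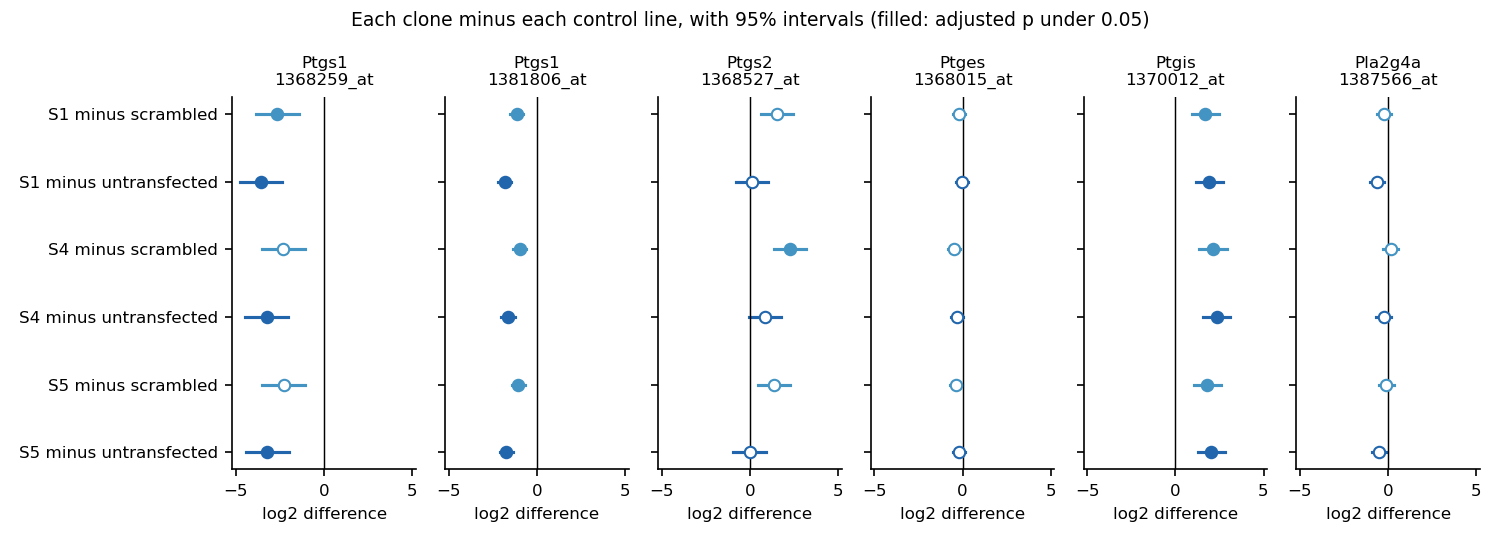
Log2 difference of each clone from each control line for 6 member probe sets, with 95% intervals and filled points for a limma adjusted p under 0.05. Ptgs1 lies left of 0 and Ptgis right of 0 in all 6 comparisons, while Ptgs2 is called only in S4 against scrambled.

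The enzymes before and beside the cyclooxygenases gave smaller differences. For Pla2g4a, S1 had 548 and 688 at passages 43 and 42, S4 had 713 and 863 and S5 had 596 and 750.0, against 648 and 786 in the scrambled and 957 and 916 in the untransfected line. Clone and control arrays overlapped. Its differences lay between -0.22 and 0.14 against scrambled and between -0.61 and -0.26 against untransfected (SE 0.18), with limma adjusted p of 0.103 or more. The largest, -0.61 in S1 against untransfected, passed with passage as a replicate block (adjusted p = 0.0250).

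Ptges, the inducible prostaglandin E synthase, was read by 2 probe sets. On the brighter one, S1 had 109 and 105, S4 had 99.3 and 77.5 and S5 had 104 and 86.3, against 122 and 120.2 in the scrambled and 114 and 107 in the untransfected line. The ranges met near 107 to 109, so the groups overlapped. Differences were -0.47 to -0.18 against scrambled and -0.33 to -0.04 against untransfected (SE 0.14), and the lowest limma adjusted p was 0.150. The other probe set was at the floor on 5 arrays and reached at most 23.0, so it holds no measurable difference. With Ptgds at the floor of 20 on all 10 arrays, prostaglandin D synthase of this type was not above the floor in any line, which gives only an upper limit to its signal.

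The lines were then ordered by level. Mean log2 levels of Ptgs1 on its brighter probe set were 7.69 ± 1.09 in S1, 8.01 ± 0.39 in S4, 8.03 ± 0.85 in S5, 10.34 ± 0.23 in scrambled and 11.27 ± 0.012 in untransfected cells (SD, n = 2 each). Those of Ptgis were 9.16 ± 0.45 in S1, 9.59 ± 0.40 in S4, 9.27 ± 0.62 in S5, 7.46 ± 0.20 in scrambled and 7.24 ± 0.17 in untransfected cells. For both genes the widest step between neighbours in this order lay between clones and control lines. It was called for Ptgis, S1 against scrambled (adjusted p = 0.0324), and for Ptgs1 on its brighter probe set, S5 against scrambled, with passage as a replicate block (adjusted p = 0.00914) and not without it (adjusted p = 0.0615). On the dimmer probe set of Ptgs1 the step between clones and control lines, S4 against scrambled, was called (adjusted p = 0.0169). Without the replicate block, no other neighbours differed by the test for these 2 genes. Between scrambled and untransfected, no member probe set was called, where 6.10% of all tested probe sets were. Ptgs1 was at -0.93 (limma adjusted p = 0.344) on its brighter probe set and -0.67 (adjusted p = 0.0511, and 0.0101 with passage as a replicate block) on the dimmer one, and Ptgis at 0.22 (adjusted p = 0.755).

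No member was called between clones, where hardly any of all tested probe sets were. Of 21 differences between clones, limma called 0 for S4 minus S1 (0.0327% of all tested probe sets), S5 minus S1 (0.0145%) and S5 minus S4 (0.0254%), and the lowest unadjusted p was 0.0523. With passage as a replicate block, 0 were called and the lowest adjusted p was 0.680. Ptgs2 was at 0.74 in S4 minus S1 (95% interval -0.17 to 1.65) and -0.90 in S5 minus S4 (-1.81 to 0.01). Ptgis was at 0.44 in S4 minus S1 (-0.33 to 1.21). With these intervals, differences of that size between clones can be neither shown nor set aside.

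A second test took the line as the replicate, 3 clone means against 2 control means. The labels do not say whether the clones came from 1 transfection, and the control lines, scrambled and untransfected, were unlike conditions. This test may thus not measure the spread between separate transfections. It called 1 member probe set higher and 1 lower, where 0.898% of all tested probe sets were called. Ptgis averaged 9.34 ± 0.23 over the clones (SD, n = 3) and 7.35 ± 0.16 over the control lines (SD, n = 2), a difference of 1.99 (SE 0.16, 95% interval 1.59 to 2.39, limma adjusted p = 0.0265). Ptgs1 on its brighter probe set averaged 7.91 ± 0.19 over the clones and 10.80 ± 0.66 over the control lines, a difference of -2.89 (SE 0.30, -3.65 to -2.13, limma adjusted p = 0.0381). On the dimmer one the difference was -1.40 (SE 0.21), with limma adjusted p = 0.0702, and 0.00195 in a fit of the 10 arrays that took line as a random block and passage as a replicate block. It passed without the scrambled line (-1.73) or without the untransfected line (-1.06). Ptgs2 averaged 8.98 ± 0.48 over the clones and 7.95 ± 0.98 over the control lines (1.03, SE 0.49, limma adjusted p = 0.406), and Ptges on its brighter probe set and Pla2g4a were at -0.26 and -0.25 (adjusted p = 0.346 and 0.525). Of the tested probe sets, 7.50% had all 6 clone arrays on one side of all 4 control arrays, and both probe sets of Ptgs1 and that of Ptgis were among them. The calls of Ptgis and of Ptgs1 on its brighter probe set were lost without S1, S4 or S5, where Ptgis was at 2.08, 1.86 and 2.02 and Ptgs1 at -2.78, -2.94 and -2.95. Without S1, S4 or S5 this test called 0, 2 and 0 of all tested probe sets, against 247 with all lines, so nearly every call was lost there. With the 3522 probe sets at the floor kept in the fits, every call of Ptgis, Ptgs2 and the brighter probe set of Ptgs1 against the control lines was lost, and the dimmer one kept 4 of its 6. With an offset of 50 before log2, the calls of Ptgis in S1 (1.46) and S5 (1.56) against scrambled and that of Ptgs1 on line means (-2.64) were lost.

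Between passages, 1 member was called. Ptgis was higher at passage 43 than at passage 42 by 0.52 (SE 0.10, 5 lines, limma adjusted p = 0.0328), in 5 of 5 lines, where 5.52% of all tested probe sets were called. The other 6 member probe sets were not called, with Ptgs1 at -0.73 on its brighter probe set (limma adjusted p = 0.101) and Ptgs2 at -0.33 (adjusted p = 0.463). Pla2g4a was at -0.23 (adjusted p = 0.133) and was called at -0.30 without the untransfected line. The Ptgis call was lost without S1 (0.49), S4 (0.51), S5 (0.43) or the scrambled line (0.58). Of all tested probe sets, 0 were called without S1, S4 or S5 and 782 without the scrambled line, against 1520 with all lines. Within passages the differences of clones from control lines kept their direction: for Ptgs1 they were -3.35 at passage 43 and -2.43 at passage 42, and for Ptgis 2.20 and 1.78. With 1 passage alone, Ptgs1 passed at neither and Ptgis at passage 43 only. Of all tested probe sets, 80 were called at passage 43 alone and 3 at passage 42 alone.

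After these values were seen, the passage change was compared between clones and control lines. Ptgs1 on its brighter probe set changed by -1.54 in S1, -0.56 in S4 and -1.20 in S5, against -0.33 and -0.02 in the scrambled and untransfected lines. Each clone thus moved down further than either control line, by a mean of -1.10 (SE 0.18) against -0.17 (SE 0.23). The difference between them was -0.92 (95% interval -1.63 to -0.22), which did not pass over all probe sets (limma adjusted p = 0.507). For Ptgis the change was 0.69 (SE 0.09) in the clones, against 0.27 (SE 0.11) in the control lines, a difference of 0.43 (limma adjusted p = 0.512). Of all tested probe sets, 0.0182% were called in this comparison.

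**Figure D3:**
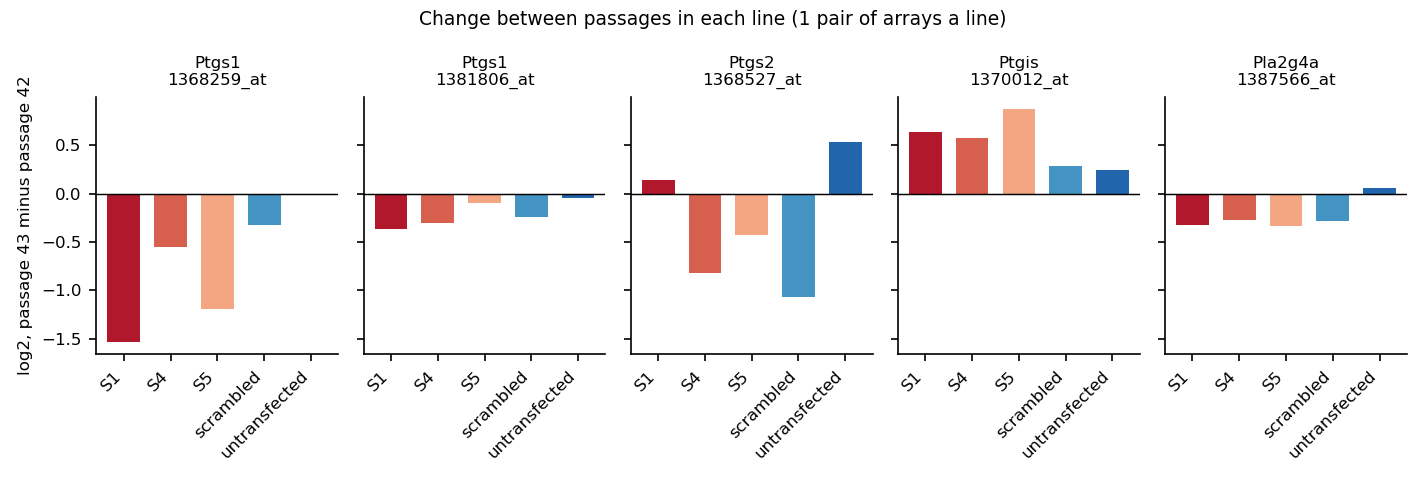
Log2 change, passage 43 minus passage 42, of 5 member probe sets in each line, 1 pair of arrays a line. Ptgis rises above 0 in all 5 lines, Ptgs1 on its brighter probe set (leftmost panel) falls furthest in S1 and S5, and Ptgs2 differs in sign between lines.

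The wider pathway was read from 78 genes in 9 lists ordered by role, of which 74 were on the array and 71 were tested. In at least 4 of the 6 comparisons, 1 gene was called higher (Ptgis) and 2 lower (Ptgs1 and Abcc4), and the other 68 were not. Of all 27520 tested probe sets, 0.821% were called higher and 0.560% lower in at least 4. With passage as a replicate block Ptgr1 joined those called lower, while 462 of all probe sets were then higher and 291 lower. The median over the 71 genes of the mean difference in the 6 comparisons was -0.06, against -0.0084 over all tested probe sets.

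Abcc4 encodes a membrane pump that exports prostaglandins from cells. S1 had 725 and 837 at passages 43 and 42, S4 had 845 and 811 and S5 had 793 and 948, against 1390 and 1737 in the scrambled and 2147 and 1521 in the untransfected line. No clone array reached a control array, as for the 3.44% of all tested probe sets that lay below in this way. Clone means differed from control means by -1.02 (SE 0.10, limma adjusted p = 0.0322), and limma called it lower in 5 of the 6 comparisons, all but S5 against scrambled (-0.84, adjusted p = 0.0606, and 0.0472 with passage as a replicate block). The call on line means was lost without S1, S4 or S5, at -0.98, -1.03 and -1.06, where 0, 2 and 0 of all tested probe sets were called. It was also lost at passage 42 alone (-0.91, adjusted p = 0.131) and at passage 43 alone (-1.14, adjusted p = 0.128), where 3 and 80 of all tested probe sets were called. With the probe sets at the floor kept in the fits, every call of Abcc4 was lost, with limma adjusted p of 0.0584 to 0.118, and with an offset of 50 the call of S4 against scrambled was lost (-0.87, adjusted p = 0.0616). Single calls were lost without arrays of any line, at -1.32 to -0.75.

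Ptgr1, a reductase that inactivates prostaglandin metabolites and leukotriene B4, ranged from 2863 to 4612 on the clone arrays and from 5310 to 9100 on the control arrays. Line means differed by -1.02 (SE 0.12, limma adjusted p = 0.0488). This call was lost without S1, S4 or S5 (-0.95, -1.03 and -1.08), where 0, 2 and 0 of all tested probe sets were called. It was also lost at passage 42 alone (-1.05, adjusted p = 0.0896) and passage 43 alone (-0.997, adjusted p = 0.173), where 3 and 80 were called. Limma called Ptgr1 lower in S1 against untransfected (-1.30, adjusted p = 0.0396), and in all 6 comparisons with passage as a replicate block. That S1 call was lost without any 1 array of a clone or of the untransfected line, at -1.55 to -1.04. With the probe sets at the floor kept in the fits, limma adjusted p was 0.114 for the line means and 0.116 for S1 against untransfected, and with an offset of 50 it was 0.0622 and 0.0584, so both calls were lost in either setting.

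In the other lists no gene was called the same way in 4 of the 6 comparisons. Among terminal synthases, Ptgis was the 1 gene of 8 tested, and Ptges2 and Ptges3, the other prostaglandin E synthases, had mean differences of -0.15 and -0.05, with Tbxas1, thromboxane synthase, at -0.19. The brightest genes of the remaining lists were Anxa1, the annexin that inhibits phospholipase A2, at -0.0021, Elovl5, a fatty acid elongase, at 0.15, Ptgfrn, a regulator of the prostaglandin F receptor, at 0.24, Mgst2, a microsomal glutathione transferase, at -0.13, Zfp36l2, a zinc finger protein of messenger RNA decay, at 0.02, and Egr1, an immediate early transcription factor, at 0.46, and all were uncalled in the 6 comparisons. Counts called in at least 4 comparisons were 0 of 10 phospholipases and their inhibitor, 0 of 9 genes of arachidonate handling, 0 of 10 prostanoid receptors, 0 of 9 genes of the lipoxygenase branch, 0 of 7 genes of Ptgs2 messenger RNA turnover and 0 of 10 transcription factors reported to act on Ptgs2. In at least 1 comparison, 1 terminal synthase and 1 gene of the lipoxygenase branch were called lower. Besides Ptgis, 2 genes of Ptgs2 messenger RNA turnover and 2 of these transcription factors were called higher in at least 1. Per comparison, 3.44% to 4.38% of all tested probe sets were called.

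**Figure D4:**
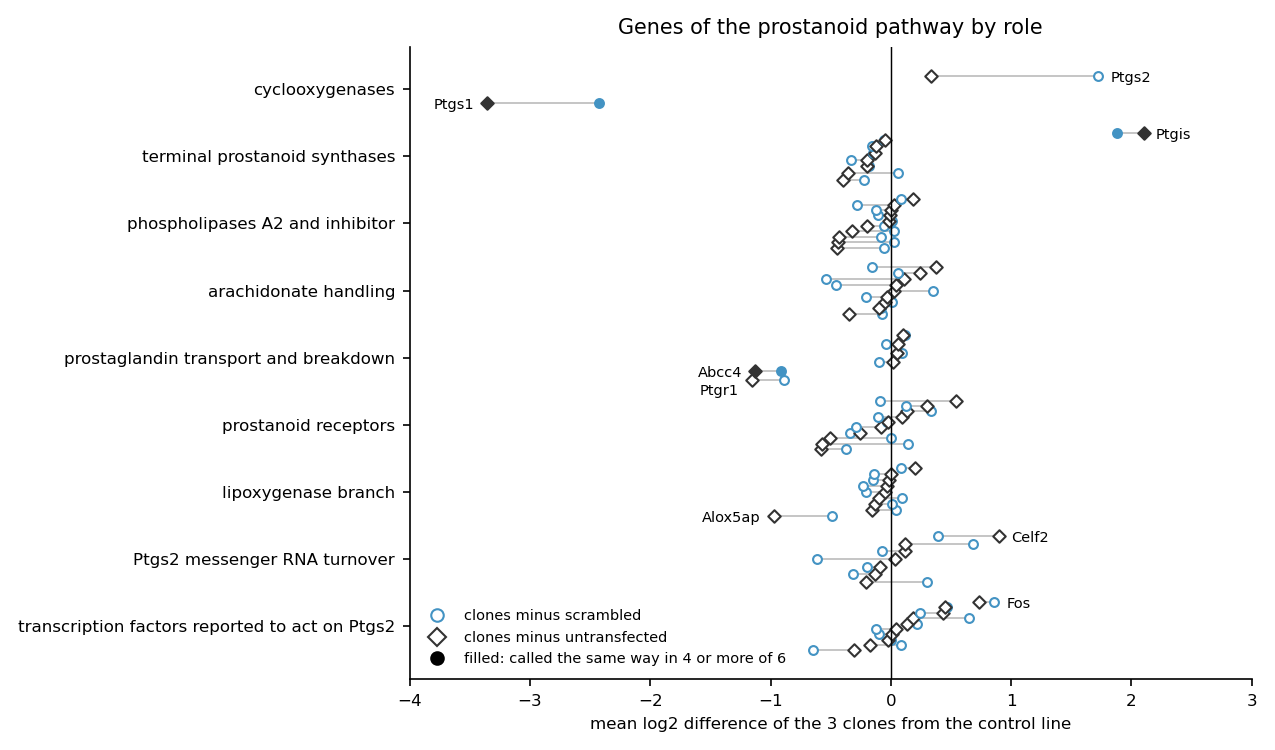
Mean log2 difference of the 3 clones from the scrambled line (circles) and from the untransfected line (diamonds) for 71 tested pathway genes, grouped by role, with filled symbols for genes called the same way in at least 4 of 6 comparisons. Ptgs1, Ptgis and Abcc4 are filled, and Ptgs2 lies to the right against scrambled and less far to the right against untransfected.

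Genes with the most similar profiles were found by the root mean square difference of log2 values centred on the mean of the 10 arrays, over 19202 probe sets with 1 symbol. Nearest to the brighter probe set of Ptgs1 were Ctnnd2 at 0.45, Star, the mitochondrial cholesterol carrier, at 0.48 and Pilrb2l4 at 0.51, against a spread of that probe set about its own mean of 1.52. Ctnnd2 lay between 33.6 and 106 on clone arrays and between 240.01 and 545 on control arrays. Nearest to the dimmer one, whose own spread was 0.73, were Ggh, gamma-glutamyl hydrolase, at 0.14, Fmnl3, a formin, at 0.19 and Trpv2, a cation channel, at 0.23. The probe sets of Ptgs1 had none of these genes in common.

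Nearest to Ptgs2, whose own spread was 0.81, were Tpm1, a tropomyosin, at 0.35, Plcb4, a phospholipase C, at 0.35 and Crim1, a membrane-bound regulator of bone morphogenetic proteins, at 0.37. Tpm1 lay between 4871 and 7916 on clone arrays and between 1361 and 5838 on control arrays. Nearest to Ptgis, whose own spread was 1.03, were Dock8, a guanine nucleotide exchange factor, at 0.21, Col8a2, a collagen VIII chain, at 0.24 and Tmcc3 at 0.26. Dock8 lay between 365 and 746 on clone arrays and between 97.8 and 119.8 on control arrays. These profiles are descriptions over arrays that share their lines.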

How the data were processed

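The authors deposited 1 table of intensity values on a linear scale. Per the submitters' processing notes it was made with RMA, whose version is not given in the sources used here. Of these deposited intensities, 14.6% were exactly 20, the lowest value, which has no order below it. How the linear scale and this floor arose from a table made with RMA was not examined here. Array medians lay between 97.7 and 104, and precision is limited by the small number of arrays.

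Log2 of the deposited intensities was tested with limma 3.58.1 in R 4.3.3 (lmFit and eBayes, Benjamini-Hochberg adjusted p under 0.05 over all tested probe sets). From the 31099 probe sets, 57 controls of the array and the 3522 that never rose above the floor were removed before testing. Lines were compared with 1 coefficient per line over 10 arrays, clones and control lines over 5 line means, and passages with line as a block. Gene names came from the platform annotation, and 19142 of 19202 tested probe sets with 1 symbol matched the GRCr8 gene table. The fits were tested on simulated data with independent noise and no spread between lines other than the changes put in. The test on line means was thus not checked under such a spread.

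The members, gene lists and tests were chosen with earlier results of these data known. Named were all member probe sets, pathway genes called the same way in at least 4 of 6 comparisons or otherwise the brightest of a list, 1 probe set a gene by highest mean, and the 3 nearest profiles; Ptgr1, Ptges2, Ptges3 and Tbxas1 were added after their values were seen. All 10 pairs of lines had passage changes that correlated above 0.1, from 0.136 to 0.649 over probe sets, which is the criterion used here for paired passages. The line tests carry no passage term, and the fit with passage as a replicate block is given beside each member result whose call it changes. Alternatives were the passage as a replicate block, quantile normalization, other filters, an offset of 50, a trended variance prior, and each array, line or passage left out.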

Additional observations from a re-analysis of the deposited data

How the results depend on the processing

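Over 1064 recomputed values of single genes, 872 kept their direction and side of the threshold, 151 lost it, 32 gained it and 9 changed sign, all 9 of them uncalled. The 9 were Ptgs2 in S5 against untransfected, at 0.0727 with quantile normalization and -0.28 to 0.25 with 1 array left out, Ptgs2 in S1 against untransfected (-0.13 to 0.41), Ptges in S1 against untransfected (-0.0915 to 0.0086), and Pla2g4a in S4 (-0.0019 to 0.28) and S5 (-0.26 to 0.0723) against scrambled. Ptgs1 and Ptgis kept their direction from the control lines in every setting.

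Counts of probe sets called over the whole table moved more. With passage as a replicate block S1 had 2129 and 2439, S4 1906 and 1904 and S5 1845 and 2103 against scrambled and untransfected, with 3602 for scrambled minus untransfected, 36 for S4 minus S1 and 11 for S5 minus S4. Without the filter on the floor they were 616 and 602, 574 and 503, 467 and 526, 1014, 2 for S4 minus S1, 2 for S5 minus S1, 4 for S5 minus S4 and 14 for the line means. With log2(intensity + 50) they were 2, 2 and 4 between clones and 132 for the line means, with a trended prior 14 for S4 minus S1, and with a mean log2 of at least 6 they were 5 for S4 minus S1 and 2 for S5 minus S1. Line means gave 1205 with lines as a random and passage as a replicate block, 3 at passage 42 alone and 80 at passage 43 alone. The cause of these shifts was not tested.

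With 1 array left out, S1 had 243 to 1206 and 216 to 2357, S4 309 to 1095 and 257 to 1918, and S5 228 to 958 and 180 to 2136 against scrambled and untransfected, with 608 to 3224 for scrambled minus untransfected, 0 to 11 for S4 minus S1, 2 to 3 for S5 minus S1 and 2 to 4 for S5 minus S4; the lone array of a line is then assumed to vary like the other lines. With 1 line left out, they were 0 to 2968 for the line means, 0 to 1698 for passage and 0 for the difference in passage change. The replicate block changed no member call other than those given above.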

Other observations

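Several pathway genes were called in fewer than 4 of the 6 comparisons, and those named here were chosen after their values were seen. Alox5ap, the protein that presents arachidonic acid to 5-lipoxygenase, was lower by limma in all 3 clones against the untransfected line, at -0.99 in S1, -0.88 in S4 and -1.05 in S5 (adjusted p = 0.0176, 0.0306 and 0.0165), and at -0.51, -0.39 and -0.57 against the scrambled line, uncalled. Its intensity lay between 53.7 and 125.0 over the 10 arrays. Celf2, an RNA-binding protein reported to bind Ptgs2 messenger RNA, was higher by limma in all 3 clones against untransfected, at 0.89, 0.95 and 0.86 (adjusted p = 0.0319, 0.0265 and 0.0401), and at 0.38, 0.45 and 0.35 against scrambled, uncalled. Zfp36, which promotes decay of messenger RNAs with AU-rich elements, was higher in S1 and S4 against scrambled, at 0.69 and 0.76 (limma adjusted p = 0.0497 and 0.0363), and at 0.12 and 0.20 against untransfected, uncalled. Of all tested probe sets, 4.38%, 3.52% and 3.63% were called in S1, S4 and S5 against untransfected. Against scrambled, 4.19% were called in S1 and 3.64% in S4. The share called in several clones against the same control line was not computed. With passage as a replicate block Alox5ap, Celf2 and Zfp36 were again called in 3, 3 and 2 of the 6 comparisons, and other settings were not run for them.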
